A study of Mus musculus with 2 samples.

Results

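The cells described here are mouse thymic epithelial cells that carry RNA of tuft cell marker genes and little RNA of taste receptor pathway genes. A cell was a member when it had at least 1 UMI (a uniquely tagged RNA molecule) of at least 4 of the 8 tuft markers Sh2d6, Alox5ap, Rgs13, Sh2d7, Ly6g6f, Dclk1, Pou2f3 and Trpm5, and of fewer than 2 of the 5 taste genes Rgs21, Gnat3, Ovol3, Gnb3 and Tas2r105. There were 495 members among 7621 kept cells, 172 in the library labelled Foxp1 KO and 323 in the library labelled Foxp1 WT. Tuft-like cells with 2 or more taste genes, called taste-type below, numbered 361 (113 and 248), and the other kept cells numbered 6765 (3299 and 3466). The members were thus chosen by UMIs of these 13 genes, whose levels are given as a description.

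Tuft cells are chemosensory epithelial cells that need the transcription factor Pou2f3, signal through the channel Trpm5 and release interleukin 25, leukotrienes and acetylcholine. In the thymic medulla a small part of the epithelium takes on such a program and is counted among the mimetic cells, medullary epithelial cells that resemble cell types of other tissues. Thymic tuft cells express taste pathway genes to varying degrees, and tuft cells of several tissues also express signalling genes better known from blood cells.

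The libraries were made from live EPCAM+ cells sorted from dissociated thymi after a Percoll gradient. The 2 libraries are labelled Foxp1 KO (Cre+) and Foxp1 WT (Cre-), with 1 library per group, and the series concerns the transcription factor Foxp1, Fezf2-dependent expression, mimetic cell diversity and tolerance. Both samples carry the genotype entry KO, and the groups therefore rest on titles and library names. Nothing used here states the strain, age or number of the mice, which Cre was used or which part of Foxp1 it removes. The libraries held 25233944 and 33120715 UMIs over 4277 and 4957 barcodes, and the kept cells had medians of 5097.5 and 6267 UMIs. No barcode was shared by members of both libraries. With 1 library per group nothing could be tested across animals, and all intervals are 95% intervals that cover counting error only. Paired values below are given for the library labelled KO first and the library labelled WT second.

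Foxp1 itself, the gene named by the labels, went against them in the members. Its level was 524 CPM (summed UMIs per 1000000) in the library labelled KO and 371 CPM in the library labelled WT. The log2 ratio was 0.50 (0.35 to 0.64), and it was 0.66 in taste-type cells and 0.72 in the other kept cells. Counts over the whole gene do not show a deletion whose remaining transcript is still counted, and 4 annotated genes overlap Foxp1 on the same strand (chr6:98925338-99522721, minus strand, GRCm38), so the libraries are named here by their labels throughout. Of the other family members, Foxp4 was at 101 and 130 CPM in members (-0.37, -0.69 to -0.07), Foxp2 had 17 and 31 UMIs (0.04, -0.91 to 0.94) and Foxp3 had none, which allows at most 3 UMIs in each library.

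Members made up a smaller share of the library labelled KO. They were 4.80% of its kept cells (exact binomial interval 4.12 to 5.55%) and 8.0% (7.18 to 8.88%) of those in the WT-labelled one, a log2 ratio (KO over WT, as throughout) of -0.74 (-1.01 to -0.47). Taste-type cells differed in the same direction, at 3.15% and 6.14%, so members were 60.4% and 56.6% of all tuft-like cells. Depth also differed between the tuft-like types, with median UMIs of 4879 and 5076 in members and 8183 and 9723.5 in taste-type cells. When every cell was reduced to 2000 UMIs before the rule, members were 4.45% and 8.12% of the cells that deep and 73.8% and 76.2% of the tuft-like cells, and the log2 ratio of their shares was -0.87 (-1.17 to -0.57). Whether the difference exceeds that between 2 mice of 1 genotype was not tested.

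**Figure D1:**
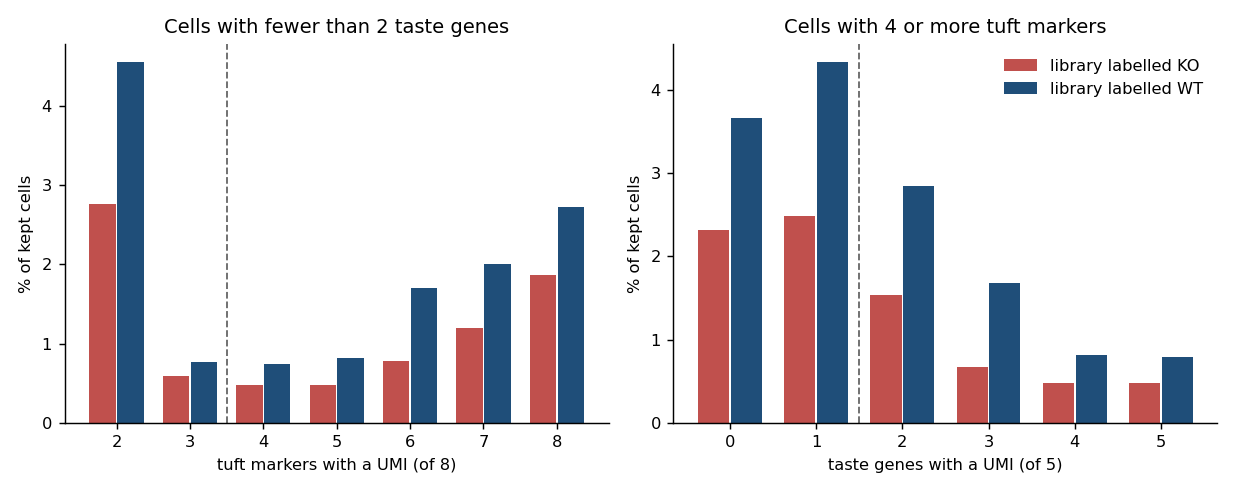
Share of kept cells (%, y axis) by the number of tuft markers with a UMI among cells with fewer than 2 taste genes (left, from 2 markers up) and by the number of taste genes among cells with 4 or more tuft markers (right), in the libraries labelled KO (red) and WT (blue), with dashed lines at the limits of the rule. The left bars are lowest around 3 to 5 markers and climb to 8, and the blue bar is higher than the red at every number.

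The levels of the rule's own genes, which the choice of members largely sets, are given as a description. Pou2f3 was at 229 and 208 CPM, against 13.9 and 18.3 CPM in the other kept cells, and Trpm5 at 522 and 466 CPM against 8.67 and 15.9 CPM. Over all 8 markers the log2 ratios between the libraries ran from -0.26 (Dclk1, a kinase-like microtubule protein, 2056 and 2455 CPM) to 0.27 (Ly6g6f), with a median of 0.10. Of the taste genes, Gnb3 was at 168 and 159 CPM in members and Tas2r105 had no UMI in either library. Gnat3, the taste G protein alpha subunit, was at 38.9 and 107 CPM in members, a log2 ratio of -1.46 (-1.94 to -1.01). The limit of the rule bears on this value, for with fewer than 3 taste genes in place of 2 the ratio was 0.00. An Epcam UMI was found in 89.0% and 87.9% of members and in 74.1% and 77.3% of the other kept cells.

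Genes outside the rule that regulate tuft cells followed the markers. Against the other kept cells, 936 of 17674 genes with at least 30 UMIs (5.3%) were at least 2-fold higher in members of both libraries with counting intervals off 0, and 974 (5.51%) were at least 2-fold lower. Such genes are called higher or lower below, and since the rule chose cells by expression these counts are a description. Of 13 tuft transcription regulators, 10 were called higher. Gfi1b, a zinc finger repressor, was at 26.8 and 24.2 CPM in members and at 2.41 and 1.94 CPM in other cells. Hmx2, a homeobox factor, was at 50.3 and 42.9 CPM against 4.09 and 3.02 CPM, and Runx1, better known from blood cells, at 704 and 634 CPM against 127 and 116 CPM. Sox9 (491 and 507 CPM), Spib (260 and 297 CPM) and Ehf (447 and 569 CPM) were also called higher.

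Pou2f3 acts with small coactivators, 2 of which lie next to each other on chromosome 9 (chr9:51289686-51328917 and chr9:51270258-51278569). The first, 1810046K07Rik (also Pou2af2 or OCA-T1), was at 228 and 164 CPM in members and 6.58 and 6.20 CPM in other kept cells. Colca2 (Pou2af3 or OCA-T2) was at 52.7 and 40.7 CPM against 12.2 and 9.78 CPM, and both were called higher. The B cell coactivator Pou2af1, by contrast, had 7 and 6 UMIs in all members.

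POU factors are known to bind the octamer ATGCAAAT, which was searched on both strands in the windows from 250 bases before to 50 bases after each gene start (RefSeq, GRCm38.p6). It was in 570 of 32851 windows (1.74%) and, with each gene counted once, in any window of 532 of 27025 genes (1.97%). Counted by gene, it was in 143 of 8604 with 30 or more UMIs in members (1.66%). Of those genes, 661 were called higher against the other kept cells and 23 of these held it (3.48%). None of the 6 tuft markers with a window held it. Of 95 genes in 11 lists of tuft functions 8 held it, Hpgds, Il4ra, Sucnr1, Itpr3, Il18, Il33, Rgs21 and 1810046K07Rik. A match describes letters only and shows no binding. The 2 stretches below lie before the gene start and are shown because 1 belongs to a Pou2f3 coactivator that members express, with a match on each strand (86 and 55 bases before the start), and the other to Rgs21, a regulator of G protein signalling among the taste genes of the rule (200 bases before the start). Capitals mark the octamer as read on either strand.
1810046K07Rik, chr9:51328936-51329034, minus strand: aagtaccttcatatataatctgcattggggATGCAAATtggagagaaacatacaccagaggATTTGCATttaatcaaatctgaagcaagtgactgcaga
Rgs21, chr1:144567830-144567897, minus strand: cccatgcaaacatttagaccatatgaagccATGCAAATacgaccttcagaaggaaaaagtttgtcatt
Rgs21 had 0 and 8 UMIs in members and was at 294 and 261 CPM in taste-type cells, and the coactivator was at 374 and 308 CPM in taste-type cells, higher than in members.

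Members carried RNA for the enzymes that make leukotrienes and prostaglandin D2. Alox5, the 5-lipoxygenase that works with the marker Alox5ap, was at 293 and 242 CPM in members and 5.09 and 4.33 CPM in other kept cells. Ltc4s, which forms leukotriene C4, was at 384 and 410 CPM against 30.2 and 32.8 CPM. Ptgs1, the constitutive cyclooxygenase, was at 218 and 187 CPM against 5.95 and 4.11 CPM. Hpgds, a prostaglandin D synthase, was at 233 and 185 CPM against 26.2 and 26.8 CPM. These were the 4 of 11 eicosanoid genes called higher, against 5.3% of all genes.

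Free RNA can put UMIs into cells that do not express a gene, so the percentage of members with a UMI was set, at 2000 UMIs per cell, beside that of endothelial-like cells (259 and 103 cells with 3 or more endothelial markers, median 4590 and 8075 UMIs before reduction), which may themselves express some of these genes. Alox5 had a UMI in 45.6% and 40.8% of members and in 0 of 214 (at most 1.71%, exact binomial) and 2.15% of endothelial-like cells. Ptgs2, the inducible cyclooxygenase, had a UMI in 3.8% and 8.36% of members and in 10.7% and 20.4% of endothelial-like cells. Because endothelial-like cells may express Ptgs2, these shares do not settle whether members do. Pla2g4a, which frees arachidonic acid, had a UMI in 26.6% and 32.4% of members against 18.2% and 22.6%.

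Of the cytokine genes, 3 of 10 were called higher against other kept cells. Over all genes 5.3% were called higher and 5.51% lower. Il25, the alarmin that tuft cells are known for, was at 89.2 and 84.0 CPM in members and 1.45 and 2.95 CPM in other cells, with a UMI in 17.7% and 16.4% of members and 1.40% and 0% (0 of 93, at most 3.89%) of endothelial-like cells at 2000 UMIs. Il10, an anti-inflammatory cytokine, was at 81.1 and 51.5 CPM against 11.4 and 13.3 CPM, and 0 of 214 and 0 of 93 endothelial-like cells had a UMI of it at 2000 UMIs (at most 1.71% and 3.89%). Tslp, an alarmin of epithelia, was at 28.4 and 14.3 CPM against 8.08 and 6.08 CPM. Of 8 measured cytokine genes, 2 were above the endothelial-like share in both libraries with intervals apart, Il25 and Il10, and Tslp was not. Il33 and Il18 had at most 4 UMIs in members of either library. Il33 and the chemokine gene Ccl20 were called lower, and Ccl20 was at or under its endothelial-like share in both libraries.

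Among cytokine receptors 1 stood far above other kept cells. Il17rb, a chain of the interleukin 25 receptor, was at 122 and 108 CPM in members and 3.04 and 3.51 CPM in other kept cells. It was the only 1 of 11 cytokine receptors called higher, against 5.3% of all genes. Il13ra1 (140 and 156 CPM) and Il4ra (116 and 117 CPM), chains of the receptors for interleukins 4 and 13, lay 0.84 to 1.20 above other cells on the log2 scale in both libraries.

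RNA for the acetylcholine-forming enzyme was present with little for its transporters. Chat, choline acetyltransferase, was at 105 and 100 CPM against 1.68 and 2.43 CPM in other kept cells and had a UMI in 25.9% and 19.7% of members at 2000 UMIs. Slc18a3, the vesicular transporter, had 2 and 4 UMIs in all members, and Slc5a7, the choline transporter, had none, which allows at most 3 UMIs in each library. Slc18a3 lies within Chat on the same strand, so UMIs of both could have been assigned to either.

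Some signalling genes shared with the taste pathway were present although taste genes had been selected against. Of 8 measured cascade genes, 3 were above the endothelial-like share in both libraries with intervals apart, Plcb2, Gng13 and Tas1r3. The other 5 were at or under that share in at least 1 library, and 3 of these (Gnai2, Itpr3 and Adcy4) in both. Endothelial-like cells may themselves express such genes, so these shares do not show that members lack them. Plcb2, the phospholipase downstream of taste receptors, was at 232 and 236 CPM in members and 4.04 and 5.08 CPM in other kept cells. Gng13, a G protein gamma subunit, was at 718 and 687 CPM, against 1581 and 1240 CPM in taste-type cells and 57.6 and 56.0 CPM in other cells. Tas1r3, a shared subunit of sweet and umami receptors, was at 30.8 and 25.5 CPM in members and 32.2 and 30.5 CPM in taste-type cells. Thus of 8 cascade genes measured against taste-type cells none was higher in both libraries and 7 were lower, and 1, the receptor gene Tas1r1, was called lower. Over all 9647 genes measured there 3218 were lower in both libraries and 0.995% were called lower. The rule limits taste genes in members, so these counts are a description. Cd300lf, a receptor for lipids, was at 79.4 and 65.8 CPM in members and at 1.41 and 1.16 CPM in other cells.

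**Figure D2:**
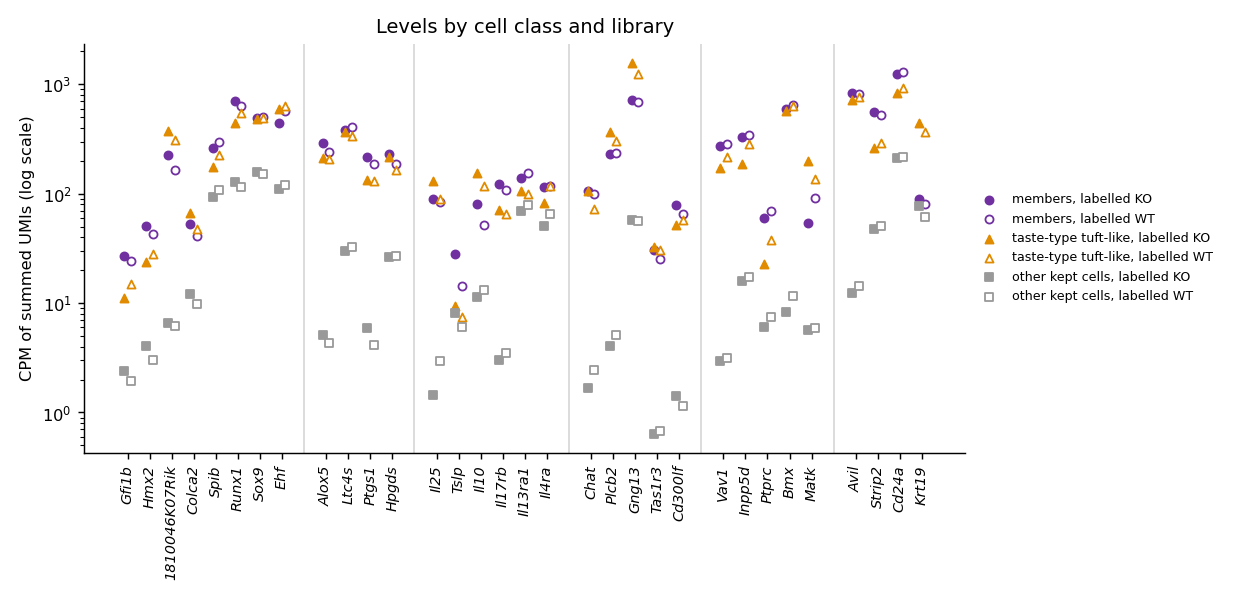
Level of 32 genes (CPM of summed UMIs, y axis, log scale) in members (circles), taste-type tuft-like cells (triangles) and other kept cells (squares), filled for the library labelled KO and open for the library labelled WT, in blocks for transcription regulators, eicosanoid enzymes, cytokines and receptors, acetylcholine and taste signalling, haematopoietic-type signalling, and cytoskeletal and surface genes. The 2 libraries lie close together within a class for most genes, and members and taste-type cells both stand above the other cells, for instance Vav1 at 273 and 284 CPM in members against 2.95 and 3.17 CPM in other cells.

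The name immune-type was not tested, because the list of haematopoietic-type signalling genes was chosen with earlier results of these data known. Of 17 such genes measured against the other kept cells 11 were called higher, against 5.3% of all genes. The 11 included Vav1 (a guanine nucleotide exchange factor, 273 and 284 CPM against 2.95 and 3.17 CPM) and Bmx (a Tec family kinase, 596 and 642 CPM against 8.22 and 11.6 CPM). Ptprc, the pan-leukocyte phosphatase CD45, was at 59.99 and 68.8 CPM against 6.08 and 7.39 CPM and had a UMI in 13.3% and 15.1% of members at 2000 UMIs, against 0.467% and 1.08% of endothelial-like cells. Of the 15 genes of this list with a share to compare, 11 were above the endothelial-like share in both libraries with intervals apart.

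Against taste-type cells these genes differed less. Of 9647 genes measured there, 40 (0.415%) were called higher in members and 96 (0.995%) lower, and the taste genes of the rule are part of the second count. Of 14 haematopoietic-type genes measured, 11 were higher in members of both libraries, with medians of 0.47 and 0.26 on the log2 scale (over all genes -0.01 and -0.02), and none was called. Ptprc lay 1.39 and 0.87 above taste-type cells and Inpp5d, a lipid phosphatase of blood cells, 0.83 and 0.26. Matk, a kinase that restrains Src family kinases, went the other way at -1.89 and -0.58.

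Cytokines did not separate both types in 1 direction. Il25 was lower in members than in taste-type cells (-0.55 and -0.10), as was Il10 (-0.93 and -1.20), while Tslp (1.60 and 0.92) and Cxcl16 (1.44 and 0.40), a transmembrane chemokine, were higher. Krt19, a simple epithelial keratin, was at 89.99 and 80.5 CPM in members and 445 and 364 CPM in taste-type cells, and was called lower. Nrgn, a calmodulin-binding protein, was at 520 and 618 CPM in members and 305 and 284 CPM in taste-type cells. Some of the 10 genes ranked highest over taste-type cells rested on single cells. Reg1, a pancreatic lectin, had 120 of its 123 UMIs in 1 member of the library labelled KO and 93 of 110 in 1 member of the other. Smyd1, a methyltransferase, was more evenly spread, with a UMI in 16.9% and 14.6% of members and ratios of 2.67 and 1.54.

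The 15 genes furthest above the other kept cells were chosen by that ratio, and endothelial-like cells are part of those other cells. As a description that this choice largely sets, these 15 genes were all above the endothelial-like share with intervals apart. They included Pik3cg and Pik3r5, the catalytic and regulatory subunits of phosphoinositide 3-kinase gamma, at 280 and 265 CPM and at 388 and 363 CPM in members and at 1.14 and 1.90 CPM and 5.99 and 7.65 CPM in other cells. Avil, the actin-binding protein advillin, was at 825 and 811 CPM against 12.3 and 14.4 CPM. The noncoding RNA A330049N07Rik (chr10:72973303-73086705, minus strand) was at 112 and 55.4 CPM against 0.227 and 0.187 CPM. Its log2 ratio between the libraries was 1.01 (0.66 to 1.37), which dropped below 2-fold without the cell with most UMIs in each library (0.95) and with no taste gene allowed (0.59).

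Members differed among themselves along both parts of the rule. Just outside the tuft limit, with 3 markers (21 and 31 cells), Avil was at 55.3 and 106 CPM and Alox5 at 14.7 and 56.0 CPM. Just inside it, with 4 markers (17 and 30 cells), Avil was at 289 and 316 CPM and Alox5 at 108 and 76.0 CPM, and with all 8 markers (67 and 110 cells) at 1039 and 1191 CPM and at 381 and 403 CPM. The cells just outside were the deeper ones, at medians of 14211 and 9222 UMIs against 5170 and 5431.5 UMIs just inside. Aire, a regulator of tissue-restricted genes in the medulla, was higher at 4 markers (461 and 468 CPM) than at 8 (79.2 and 117 CPM). The steps between were uneven, with Aire at 65.1 and 403 CPM at 5 markers. H2-Aa, an MHC class II chain, was at 1844 and 2663 CPM at 4 markers and 654 and 551 CPM at 8. In members as a whole neither Aire nor H2-Aa was set apart from background, as given further on.

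Along the taste genes, Inpp5d was at 329 and 311 CPM with none, 332 and 369 CPM with 1, 215 and 335 CPM with 2 and 92.4 and 170 CPM with all 5. Over the same range Ptprc went from 71.3 and 84.4 CPM to 4.40 and 7.41 CPM, and Gng13 from 753 and 524 CPM to 2073 and 1889 CPM. Median UMIs went from 4490 and 4820.5 to 13843 and 9508.5 over the same range. These groups held 83 and 148 cells with no taste gene, 89 and 175 with 1 and 17 and 32 with 5. The part of depth in these gradients was not tested.

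**Figure D3:**
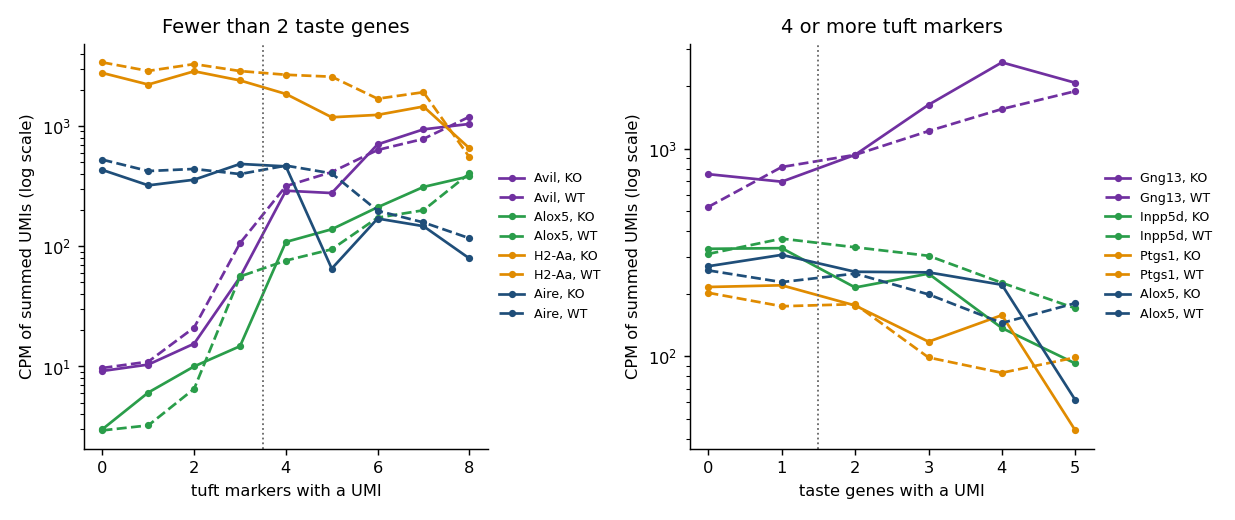
Levels (CPM of summed UMIs, y axis, log scale) by the number of tuft markers with a UMI in cells with fewer than 2 taste genes (left) and by the number of taste genes in cells with 4 or more tuft markers (right), with solid lines for the library labelled KO, dashed lines for the library labelled WT and dotted lines at the limits of the rule. Avil and Alox5 climb with tuft markers while H2-Aa and Aire are lower at 8 markers than at 4, and Inpp5d is lower at 5 taste genes than at none while Gng13 is higher.

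MHC class II genes were lower in members than in other kept cells, all 11 in both libraries. Of these 8 were called lower, against 5.51% of all genes. Of 18 regulators of medullary maturation 14 were lower in both libraries and 2 higher, and 3 were called lower. Cd74, the invariant chain, was at 3685 and 4066 CPM against 8681 and 9783.5 CPM. Aire was at 140 and 205 CPM against 389 and 477 CPM and Fezf2 at 140 and 169 CPM against 254 and 358 CPM. At 2000 UMIs, however, Aire had a UMI in 6.96% and 11.4% of members and in 30.8% and 30.1% of endothelial-like cells, and H2-Aa in 42.4% and 41.8% against 67.8% and 69.9%. The shares of all 11 MHC class II genes were at or under the endothelial-like share in at least 1 library. The levels of these genes and of Aire in members are therefore not set apart from background. Endothelial-like cells may themselves express such genes, so these shares do not show that members lack them. MHC class I genes were near the other cells, for example H2-K1 at 3611 and 3721 CPM against 3193 and 3239 CPM.

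Markers of other cells the sort could hold were mostly low in members, but 4 of them (Cd79b, Kit, Dnah5 and the microfold regulator Sox8) were called higher than in the other kept cells. The summed level of 6 endothelial markers was 66.5 and 47.2 CPM in members and 219 and 119 CPM in other kept cells, and that of 6 fibroblast markers 29.996 and 22.1 CPM against 158 and 107 CPM. For 12 thymocyte markers it was 63.2 and 38.1 CPM against 72.5 and 70.4 CPM, and for 10 myeloid markers 589 and 299 CPM against 861 and 879 CPM. The 6 B cell markers came to 89.99 and 84.9 CPM against 36.01 and 41.7 CPM, of which Cd79b made up 73.8 and 64.9 CPM. The 8 mast cell and basophil markers came to 286 and 289 CPM against 80.2 and 68.8 CPM, nearly all of it the receptor Kit (283 and 280 CPM), while Cpa3 and Mcpt8 were at 0. Kit had a UMI in 49.4% and 40.1% of members against 7.01% and 7.53% of endothelial-like cells at 2000 UMIs. Dnah5, a dynein chain from the ciliated list, was at 323 and 193 CPM against 14.1 and 11.8 CPM. The 7 keratinocyte markers summed to 203 and 189 CPM against 412 and 611 CPM, and the 7 neuroendocrine markers to 135 and 247 CPM against 228 and 287 CPM. Of 16 cell cycle genes 14 were lower in members of both libraries and 9 were called lower, against 5.51% of all genes. The highest doublet scores (103 and 130 cells) were more frequent in members (8.72% and 7.43%) than in other kept cells (2.27% and 2.14%). That number of cells was set by an assumed doublet rate, and the part of doublets in these levels was not tested.

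Within members, most genes of the tuft program were close between the libraries. Of 10975 genes with at least 30 UMIs, 278 (2.53%) were at least 2-fold higher in the library labelled KO with counting intervals off 0 and 346 (3.15%) were lower, and the median log2 ratio was 0.00. Without the cell with most UMIs of each gene in each library the first count was 117. None of the 12 measured tuft regulators, 10 cytokine receptors, 4 acetylcholine genes or 11 brush and cytoskeletal genes was called, and their medians were 0.09, -0.26, -0.05 and 0.03. Of 15 haematopoietic-type genes 1 was called lower, the sialic acid receptor Siglecf with 5 and 29 UMIs. Bmx (-0.11, interval -0.24 to 0.02), Avil (0.03, -0.09 to 0.14) and Chat (0.07, -0.25 to 0.39) are examples whose intervals hold less than a 1.5-fold difference either way.

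Cytokine genes had the median furthest above 0 of the tuft lists, 0.42 over 8 measured genes, with 6 above 0 and none called. It ranged from 0.17 to 0.64 over the 13 alternative settings, and 4 of the 8 genes were at or under the endothelial-like share in both libraries (Csf1, Tgfb1, Areg and Ccl20). Tslp was at 28.4 and 14.3 CPM (0.99, interval 0.26 to 1.72, from 35 and 33 UMIs), Il10 at 81.1 and 51.5 CPM (0.65, 0.26 to 1.05) and Cxcl16 at 96.5 and 61.9 CPM (0.64, 0.28 to 1.0). In taste-type cells the ratios were 0.31, 0.39 and -0.40, and in other kept cells 0.41, -0.21 and -0.10. Of these genes Il10 alone was above the endothelial-like share in both libraries with intervals apart. Il25 was close between the libraries in members (0.09, -0.26 to 0.43). The coactivator 1810046K07Rik was at 0.47 (0.25 to 0.70), against 0.28 in taste-type cells and 0.09 in other cells.

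Eicosanoid genes went both ways, with Hpgds at 0.33 (0.11 to 0.55), Alox5 at 0.28 (0.08 to 0.47) and Pla2g4a at -0.51 (-0.74 to -0.29). Pla2g4a was also lower in taste-type cells of the library labelled KO (-0.54) and near 0 in other cells (-0.10). The 1 called gene of this list, Ptgs2, had a UMI in a smaller share of members than of endothelial-like cells, as described. Of 10 cytokine receptors 9 were below 0, of which Ifngr1 (-0.80, -1.63 to -0.04) and Tnfrsf11a, the receptor RANK (-0.34, -0.62 to -0.07), had intervals off 0. Ifngr1 was at 19 and 62 UMIs and under its endothelial-like share in both libraries.

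**Figure D4:**
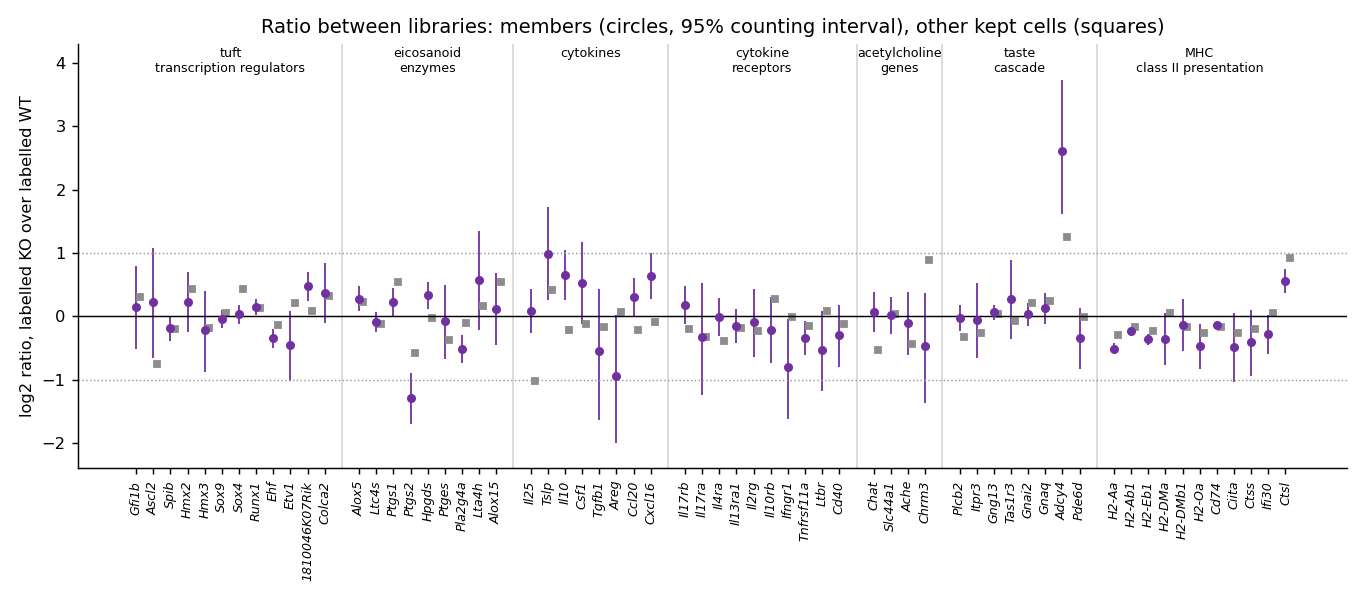
Log2 ratio KO over WT, by library label (y axis), for the measured genes of 7 lists in members (circles with 95% counting intervals) and in other kept cells (squares), with dotted lines at 2-fold. Most circles lie within 2-fold, with Adcy4 at 2.62 and Ptgs2 at -1.29 outside it.

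Adcy4, an adenylyl cyclase and the 1 called gene of the taste cascade list, and its neighbour Ripk3, a kinase of necroptosis, were both higher in the library labelled KO. Adcy4 (chr14:55769057-55784095, minus strand) was at 29.2 and 4.76 CPM in members, from 36 and 11 UMIs, a ratio of 2.62 (1.61 to 3.74). It was at 30.5 and 3.08 CPM in taste-type cells (3.31) and 4.99 and 2.09 CPM in other kept cells (1.26). Ripk3 (chr14:55784995-55788865, minus strand) was at 20.3 and 3.90 CPM in members (2.38, 1.23 to 3.66) and had ratios of 2.70 in taste-type and 0.58 in other cells. Both genes were thus higher in both kinds of tuft-like cell, and without the top cell in members their ratios were 2.95 and 2.62. Adcy4 had a UMI in 7.59% and 1.34% of members at 2000 UMIs, under the 10.7% and 11.8% of endothelial-like cells, in which its level was 36.6 and 39.8 CPM. That level is above the 4.99 and 2.09 CPM of the other kept cells, so endothelial-like cells give no background value for Adcy4, and the share in other kept cells was 1.19% and 0.524%. Ripk3 had a UMI in 3.16% and 0.334% of members, against 1.40% and 1.08% of endothelial-like and 0.941% and 0.524% of other kept cells. Counts behind both genes are small. A UMI of 2 or more endothelial markers was found in 4.65% and 1.24% of members and in 10.3% and 4.07% of other kept cells. The part of free RNA or of endothelial RNA in the Adcy4 and Ripk3 values was not tested. Over the alternatives the ratio ran from 1.29 (no taste gene allowed) to 3.21 for Adcy4 and from 2.0 to 3.03 for Ripk3.

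All 7 listed heat shock genes had ratios under 0 in members, taste-type and other kept cells. Hspa1b, an inducible chaperone, was at 204 and 500 CPM in members (-1.29, -1.49 to -1.09), with ratios of -1.15 in taste-type and -0.97 in other kept cells. Hspa1a was at 172 and 343 CPM in members (-1.0), with -1.11 in taste-type and -0.88 in other cells, and Hspa8, a constitutive chaperone, at -0.66 in members, -0.78 in taste-type and -0.51 in other cells. At 2000 UMIs, Hspa1b and Hspa1a were found in a smaller percentage of members than of endothelial-like cells in both libraries. Endothelial-like cells may themselves express both genes, so these shares do not settle whether their RNA in members is set apart from background. Immediate early genes, which respond within minutes to handling and signals, went less far, with Fos at 0.40, 0.47 and 0.09 in the same order. Nr4a1 was at 0.94 (0.61 to 1.27), 0.58 and 0.35, but at -0.12 in members with no taste gene, and both Fos and Nr4a1 were at or under the endothelial-like share in 1 library. Dissociation and sorting of each library cannot be told apart from its genotype.

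The genes furthest from 0 between the libraries were mostly not tuft genes. The 10 highest in the library labelled KO were Yae1d1, Cdkn1c, Adcy4, Sorbs2, Hamp, Nvl, Ripk3, Slc30a5, Lyz2 and Cpt1a, and the 10 lowest were Reg3g, Gm13822, Xlr5a, S100g, Ccl5, Gp2, Kcnip4, Pcgf2, 2810403D21Rik and Exd2. In the library where each was higher, 7 of the first 10 (Adcy4 among them) and 6 of the last 10 had a UMI in no larger a share of members than of endothelial-like cells at 2000 UMIs. The others were Yae1d1, Slc30a5 and Ripk3 in the library labelled KO and Gp2, Pcgf2, Exd2 and Xlr5a in that labelled WT, and the intervals were apart for 1 of these 7, Gp2. Cdkn1c, a cell cycle inhibitor, was at 212 and 42.9 CPM, of which 1 cell held 99 of 262 UMIs in the library labelled KO. Reg3g, an antimicrobial lectin, was at 199 and 959 CPM, of which 1 cell held 697 of 2215 UMIs in the library labelled WT. Leaving out the top cell took Nvl to 0.01, Slc30a5 to -0.34, Cpt1a to 0.36, Pcgf2 to -0.71 and Exd2 to -0.86, and so ended their calls. The direction turned under at least 1 alternative for Nvl, Slc30a5, Hamp, Yae1d1, Ccl5, Exd2 and Xlr5a.

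Gp2, a surface glycoprotein of microfold cells, was 1 of the 2 ranked genes above the endothelial-like share in both libraries, with Exd2, though for neither were the intervals apart in both. It was at 42.2 and 158 CPM in members (-1.91, -2.35 to -1.48), with a UMI in 6.40% and 21.1% of them, and at 67.0 and 84.9 CPM in taste-type (-0.34) and 47.3 and 57.9 CPM in other kept cells (-0.29). At 2000 UMIs it was found in 4.43% and 13.7% of members and in 0.935% and 2.15% of endothelial-like cells, and without the top cells the ratio was -2.33, while with fewer than 3 taste genes in place of 2 it was -1.02. The 6 microfold markers, Gp2 among them, summed to 306 and 390 CPM in members and 608 and 703 CPM in other cells, and the other 5 were not called between the libraries. Sox8, a microfold regulator, was at 25.1 and 23.4 CPM in members (0.10, -0.58 to 0.77).

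**Figure D5:**
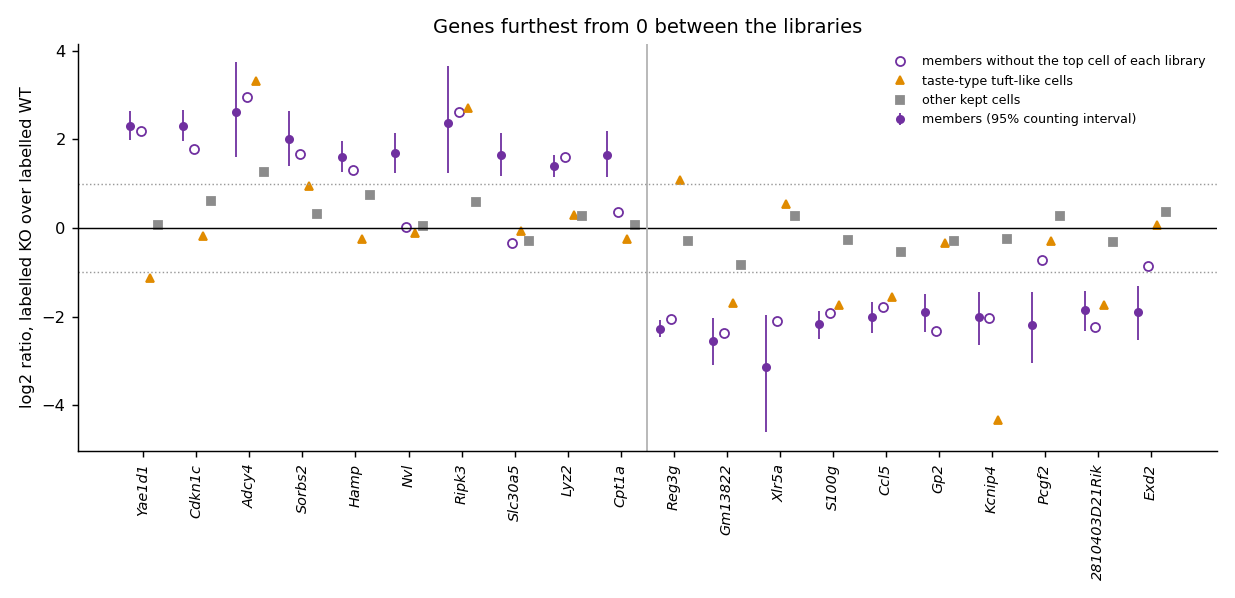
Log2 ratio KO over WT, by library label (y axis), for the 20 genes ranked furthest from 0 in members (filled circles with 95% counting intervals), in members without the top cell of each library (open circles), in taste-type tuft-like cells (triangles) and in other kept cells (squares). Open circles leave the filled ones by more than 1 unit for Nvl, Slc30a5, Cpt1a, Xlr5a, Pcgf2 and Exd2, and triangles lie with the circles for Adcy4 and Ripk3.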

How the data were processed

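As deposited, the values are raw UMI counts, 1 matrix a library, and the software version in the file headers is Cell Ranger 7.0.1. Seurat and the build mm10 appear in the submitters' processing notes with no step. Not given in the sources used here are the counting of intronic reads and the transcript end that was read. The barcode filter (500 or more genes, 1000 or more UMIs, mitochondrial UMIs up to 10%) kept 3584 of 4277 (KO) and 4037 of 4957 (WT). No barcode was under 500 UMIs as deposited. Scrublet in scanpy 1.11.5 called 0 and 2 doublets (0.0495% of the library labelled WT) and was taken not to have worked, so no doublets were removed. Its scores served only to rank cells. The 103 and 130 highest, a number from an assumed rate of 0.8% per 1000 cells, are called high here.

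UMIs were summed per library and cell class and divided by the class total (CPM). Ratios carry exact conditional binomial intervals and shares exact binomial (Clopper-Pearson) intervals (scipy 1.17.1), each at 95%. A gene was measured with at least 30 UMIs over the classes compared and called at 2-fold with its interval off 0. Cells were reduced to 2000 UMIs by seeded random draws, which left out 551 and 441 kept cells. Ratios and calls were tested on simulated counts without spread between cells, so the test does not cover values that rest on single cells. Positions came from GENCODE M21 (GRCm38) by gene ID. Of 360 genes with a position, 65 overlap another gene on the same strand and 111 on the opposite strand, so their counts are less certain.

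Members, lists and rules were chosen with earlier results of these data known. Genes that could be named were the rule genes and the tuft regulator, eicosanoid, cytokine, receptor, acetylcholine, taste cascade and Foxp lists, up to 3 highest and 3 lowest ratios of every other list, the 15 genes highest over other kept cells, and the 10 highest and 10 lowest between types and between libraries. Other list genes named for level only were chosen after their values were seen. Alternatives covered the marker limits, stricter filters (1000 genes, 2000 UMIs, 5% mitochondrial), doublet scores, other cells' markers, equal weight per cell, the UMI minimum and centring. Leaving out the cell with the most UMIs of each gene was chosen after seeing the data. Values of some listed genes are not reported here.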

Additional observations from a re-analysis of the deposited data

Results flagged for a closer look

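For 7 named genes, found in at least 10% of members and of taste-type cells in 1 or both libraries, the log2 ratio KO over WT had opposite signs in members and taste-type cells and was past 2-fold in at least 1 of them, with both counting intervals off 0 and at least 30 UMIs in each type. The difference between the types was not tested, since each type has 1 library per group. Stmn1, a microtubule regulator of dividing cells, was at 1.09 in members and -0.72 in taste-type cells, but at 0.10 in members with the rule at 2000 UMIs. At that depth it had a UMI in 5.70% and 5.02% of members and in 11.7% and 6.45% of endothelial-like cells, so it is not read as a difference in expression. Gnat3, which the rule limits in members, was at -1.46 and 0.59. Reg3g was at -2.27 and 1.08, and Cdkn1c at 2.31 and -0.19, and both had a UMI in a smaller share of members than of endothelial-like cells in both libraries. The ratio in members was 0.00 for Gnat3 and 0.21 for Cdkn1c with fewer than 3 taste genes in place of 2, and -0.57 for Reg3g with no taste gene. Chga, a granule protein of neuroendocrine cells, was at -1.72 and 1.34. Yae1d1 was at 2.31 and -1.12 (-2.37 in members with no taste gene), and Rsph1, a protein of motile cilia, at -1.06 and 0.82. The share of cells with a Yae1d1 UMI was 5.70% and 3.68% in members and 5.61% and 5.38% in endothelial-like cells at 2000 UMIs.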

How the results depend on the processing

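The log2 ratio of member shares kept its sign in all 9 alternatives (-0.87 to -0.63). Of 3038 values recomputed for 234 named genes under 13 alternatives, 2672 lay within the counting interval of the reported ratio and 279, of 111 genes, had the other sign. Where the reported interval was off 0 (104 genes), 51 values of 29 genes had the other sign, and 21 of all these belonged to ratios called at 2-fold. Genes called higher between the libraries (278) numbered 176 with the rule at 2000 UMIs, 58 at 100 or more UMIs, 672 with no minimum and 117 without the top cell of each gene. Those called lower (346) numbered 97 at 100 or more UMIs and 520 with no minimum. Genes called lower than in other kept cells (974) numbered 603 with no taste gene allowed, 627 with stricter filters, 1877 with the rule at 2000 UMIs, 1556 with equal weight per cell and 1679 without the top cell. Genes called higher than in taste-type cells (40) numbered 63 with 3 tuft markers, 20 with no taste gene, 91 with fewer than 3 taste genes, 66 without high doublet scores, 14 at 100 or more UMIs and 98 with no minimum. Those called lower (96) numbered 45 at 100 or more UMIs and 159 with no minimum. The cause of these shifts was not tested, except that the UMI minimum changes how many genes enter. Called ratios that took the other sign were, with no taste gene allowed, Nvl -0.74, Sprr1b -3.67, Reg1 -5.66, Hamp -0.61, Ccdc153 -2.49, Yae1d1 -2.37 and Slc30a5 -0.40. Among ratios under 2-fold, Krtdap went from 0.46 to -3.93, Calm4 from 0.63 to -4.70 and Chgb from 0.63 to -2.93 under that setting. With the rule at 2000 UMIs they were Nvl -0.45, Reg1 -1.12, Hamp -1.11, Ccl5 0.37, Exd2 0.46 and Slc30a5 -0.71. Without cells with 2 or more markers of another type they were Nvl -0.34, Sprr1b -0.94, Themis -0.11 and Slc30a5 -0.68. Without the top cell they were Sprr1b -0.75, Reg1 -1.60 and Slc30a5 -0.34, and with 3 tuft markers Xlr5a was 0.38. The cause of each reversal was not tested. No paired analysis was possible because each group has 1 library, and for the same reason no replicate could be left out. Centring moved all ratios by less than 0.01. Genes with few UMIs in 172 and 323 cells limit what can be seen.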
